A study of Rattus norvegicus with 4 samples.

Results

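The genes of the cytosolic ribosomal proteins were described in mammary gland RNA of rats. Members were all genes whose single platform symbol is Rpl or Rps followed by a digit, with Rplp0, Rplp1, Rplp2 and Rpsa and without the Rps6k kinases. The rule used names and no measured value, and it found 50 of the 14217 genes with a single symbol. There were 4 groups with 1 array each: Sprague-Dawley rats (SDR) on day 1 of lactation, heterozygous Hirosaki hairless rats (HHR) and homozygous HHR on day 1 of lactation, and SDR on day 1 of involution. HHR is a mutant rat strain without fur, and involution is the regression of the gland once milk removal stops. The labels give neither the age nor the number of animals behind an array, nor the length of lactation before involution. A single array a group allows neither an error nor a test of any difference, so only sizes are described.

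As background, each ribosome holds 1 copy of nearly every one of these proteins, which together with ribosomal RNA form a small subunit that reads the mRNA and a large subunit that joins amino acids. A secreting mammary cell makes large amounts of milk protein and depends on many ribosomes. Mammalian mRNAs of ribosomal proteins begin with a C followed by a run of pyrimidines, the terminal oligopyrimidine (TOP) motif. Through it the kinase mTOR and the RNA-binding protein Larp1 set how strongly these mRNAs are translated, so their protein output can change while the mRNA level stays the same.

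Of 79 standard ribosomal proteins, 42 were members, 13 of the small and 29 of the large subunit. A further 27 were named only by probe sets that list several symbols, and the rest were not analysed here. The remaining members were 6 paralogs (Rpl26l1, Rpl39l1, Rpl3l, Rpl7l1, Rps27l and Rps4y2) and 2 pseudogenes (Rpl37-ps2 and Rps4x-ps1). Rat ribosomal protein genes have many near-identical pseudogene copies, and probe sets may not tell these apart, so every value here may include related transcripts.

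The RefSeq table of gene starts (build GRCr8) held 41 of the 50 members. In 11 of these 41 (26.8%) the annotated start was a C followed by at least 4 letters that are each C or T, against 2.63% of all 27455 genes listed. The motif began within 5 bases of the start in 20 of 41 members (48.8%), against 17% of all genes. The 30 bases around the start (15 before, 15 from it onward) are shown for 3 sets. The first set holds some of the bright members with the TOP motif at the annotated start. The second holds members that stood farthest from the others in signal, and the third some of the dimmer members past 2-fold (Rpl39 and Rps4y2). Capitals mark the longest run of C and T of 5 or more letters.
Rplp0 (chr12:46718376-46718405, minus strand): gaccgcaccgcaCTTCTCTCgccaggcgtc
Rps15 (chr7:10068101-10068130, minus strand): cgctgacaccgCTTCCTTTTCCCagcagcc
Rpl19 (chr10:83519049-83519078, plus strand): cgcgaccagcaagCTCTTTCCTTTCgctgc
Rpl35a (chr11:81235007-81235036, minus strand): gcgggtcttgCCTTCCTCTTTCCgccatct
Rpl34 (chr2:221962269-221962298, minus strand): CCCCTTCCTTTTCCTCTTCCggggacggtg
Rpl41 (chr7:1563483-1563512, minus strand): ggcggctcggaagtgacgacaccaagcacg
Rpsa (chr8:128728864-128728893, plus strand): CCTTTCCgcgctaccctggaacgggtccgt
Rps16 (chr1:92770643-92770672, plus strand): cctggaaaatcggtcggggtggccccaagc
Rpl13a (chr1:104748899-104748928, minus strand): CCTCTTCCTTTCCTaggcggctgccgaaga
Rpl26 (chr10:54109677-54109706, plus strand): ctcgtgtcaacttacagaaccggaagtcgc
Rpl39 (chrX:121195882-121195911, minus strand): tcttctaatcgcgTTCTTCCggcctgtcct
Rps4y2 (chr4:183000898-183000927, plus strand): gcgcgcagCTCTCCTCactcgcttgtgctc

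In the first 5 windows the pyrimidine run crosses the annotated start. It also does so in those of Rpl39, which has the motif at the start, and Rps4y2. The window of Rpl13a holds a run of 14 that ends just before it, and those of Rpl41, Rps16 and Rpl26 hold no run of 5. An annotated start a few bases away from the one used in this tissue would move the motif out of place, so a missing motif says only that these letters are not at this position. On either strand of the 300 bases from 250 before to 50 after the start, CCGGAAG, the core that ETS family factors recognise, was found in 10 of 41 members (24.4%) and in 9.22% of all genes. AAGATGGC, the core recognised by the zinc finger factor Yy1, was found in 4 of 41 (9.76%) and in 3.44% of all. The letters AAG end the former and begin the latter, so their matches can overlap.

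Signals are MAS5 intensities on a linear scale, and for folds any lower value was set to a floor of 91.5, the 40th percentile over the probe sets of all arrays. A gene with several probe sets is represented by the brightest. Of the 50 members 45 were above the floor in at least 1 array and 43 in all 4. Mean signal exceeded 10000 for 38 members, 12 of the small and 26 of the large subunit. These 38 bright members, each encoding a standard protein, had signals from 11394 to 49301 in SDR lactation with a median of 26358. The medians in heterozygous and homozygous HHR were 23868 and 22499, and that of SDR involution was 18846. As deposited, SDR lactation was the highest of the 4 arrays for 28 of the 38 and SDR involution the lowest for 29. These counts were 15 and 19 after quantile normalization. After cyclic loess normalization they were 15 and 4, with involution highest for 17 and homozygous HHR lowest for 24.

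**Figure D1:**
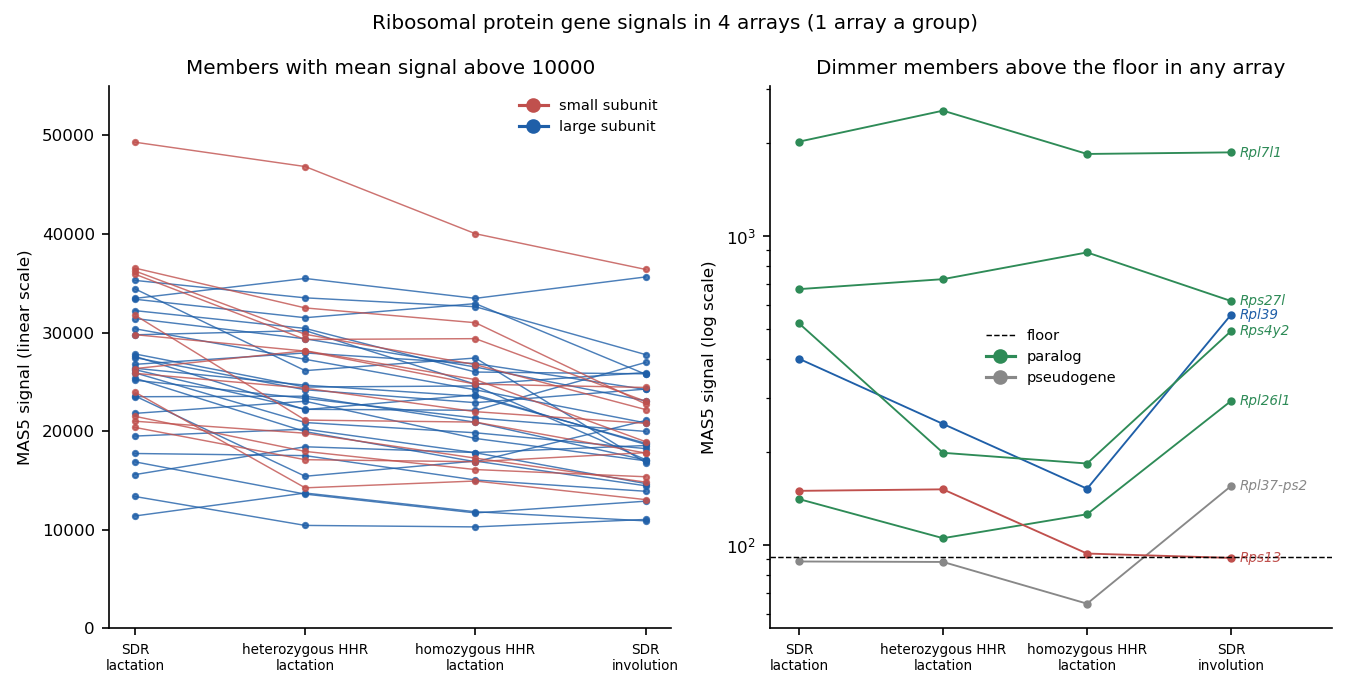
MAS5 signal of each ribosomal protein gene in the 4 arrays, with 1 point a gene and array and lines joining the values of a gene; the order of arrays is arbitrary. Left, the 38 members above 10000 on a linear axis, whose medians run from 26358 in SDR lactation to 18846 in SDR involution; right, on a log axis, the 7 dimmer members above the floor (dashed) in any array.

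The bright members varied little between arrays. The ratio of the highest to the lowest array had a median of 1.37, from 1.07 for Rpl26 to 2.05 for Rpl41, and only Rpl41 reached 2-fold, 2.63% of the 38. Among the 171 other genes with mean signal above 10000 the median ratio was 1.82, and 69 (40.4%) reached 2-fold. The spread of differences among the bright members was also narrow. Between homozygous HHR and SDR lactation the interquartile range of the 38 was 0.16 on the log2 scale. It was 0.39 for the 171 other bright genes and 0.61 for all measured genes. For involution against SDR lactation these ranges were 0.26, 1.26 and 0.95.

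Several values of the whole arrays bear on this group. The 4 probe sets of the spiked-in cre control had signals from 25398 to 58035. Their median log2 difference from SDR lactation was 0.01 and -0.15 in heterozygous and homozygous HHR, and -0.53 in involution. The median over the 171 other bright genes was -0.09, -0.15 and -0.52 in that order, whereas the median of all measured genes was 0.01, 0.02 and 0.08. Gapdh probe sets at the 3′ end of the mRNA gave 1.17 times the signal of those at the 5′ end in SDR lactation, and 1.93, 2.3 and 1.6 times in the other arrays in the same order (partial loss of RNA raises this ratio). For actin the ratios were 4.6 in SDR lactation and 7.86, 5.91 and 4.8 in the others. For both genes SDR lactation had the lowest ratio and both HHR arrays lay above both SDR arrays. Only the order of the HHR arrays differed between these genes. The part of brightness and RNA quality in the differences given here was not tested.

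**Figure D2:**
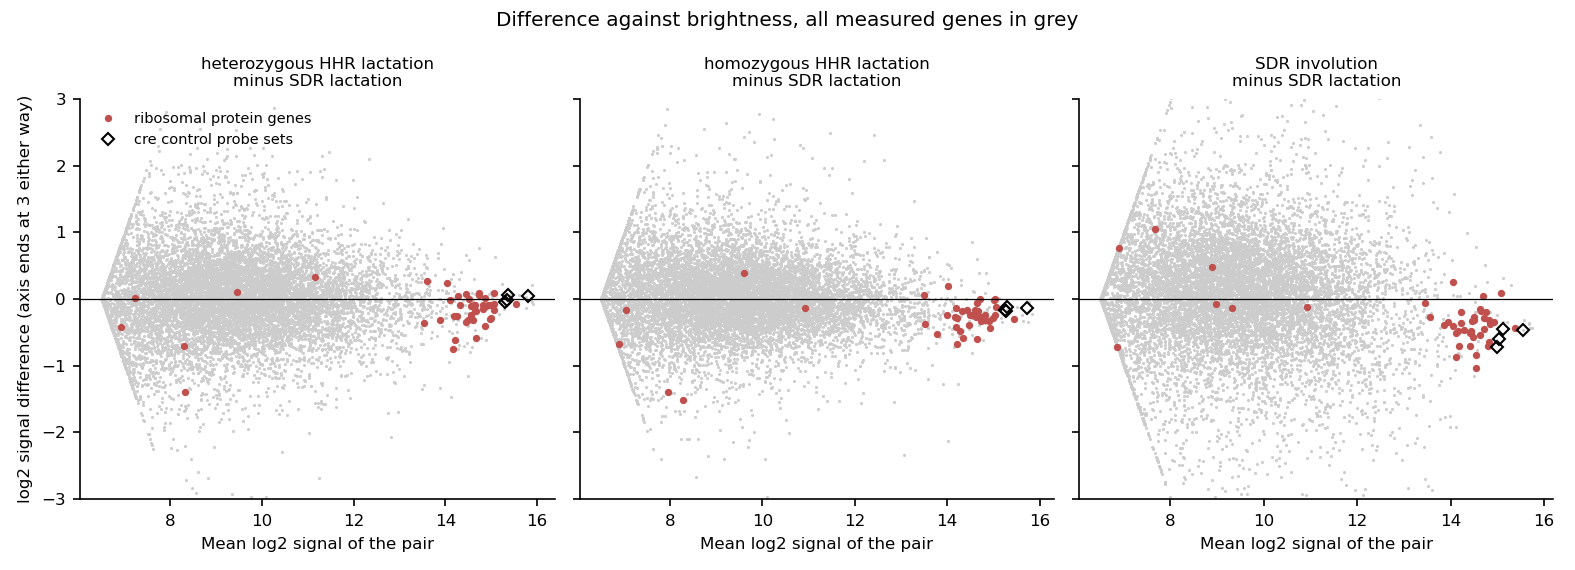
Difference from SDR lactation (log2) against mean log2 signal of the pair for all measured genes (grey), ribosomal protein genes (red) and the cre control probe sets (open diamonds). In involution the bright ribosomal protein genes and the cre probe sets, whose median is -0.53, both lie mostly below 0.

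In involution against SDR lactation, most ribosomal protein genes had lower signals as deposited. The 45 measured members divided into 39 lower and 6 higher, and the median log2 difference was -0.36. Of the 11014 measured genes 5031 were lower, and of the 171 other bright genes 123. At 2-fold 1 member was lower and 1 higher, where 8.94% of the 11014 measured genes were lower and 10.3% higher. At 1.5-fold 9 were lower and 2 higher, beside 18% and 23.5% of all genes. All 12 bright small subunit members were lower (median -0.49), as were 23 of 26 of the large subunit (median -0.36). The direction of the group rests on the scaling: the median of the bright members was -0.40 as deposited and -0.54 with arrays centred on their median, but -0.04 after quantile normalization and 0.02 after cyclic loess normalization, both of which take out differences that depend on brightness. Centring moved the median of all genes from 0.08 to -0.06.

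Rpl41, the shortest ribosomal protein, stood lowest. Its signal was 34430 in SDR lactation, 26133.5 and 27412 in heterozygous and homozygous HHR, and 16802.5 in involution, 2.05-fold below SDR lactation. Rps16, whose tail reaches the tRNA in the decoding site, had 31767, 21117, 20914 and 17772 in the same order and was 1.79-fold lower in involution. Both are thus highest in SDR lactation and lowest in involution, with the HHR arrays close to each other.

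Rpsa, a small subunit protein also known as a laminin receptor, had 23954 in SDR lactation, 14247.5 and 14939 in heterozygous and homozygous HHR, and 13052 in involution. Its brightest probe set was 1.84-fold lower in involution, while the others of the gene were 1.15-fold and 1.35-fold lower. The probe sets share a direction and differ in size. Rplp0, the base of the stalk that recruits elongation factors, had 23568, 15421, 16964.5 and 14454.5 in that order. Its signal was 1.63-fold lower in involution and 1.53-fold lower in heterozygous HHR. Rps15a had 36242.5, 29822, 26739 and 22183, also 1.63-fold lower in involution. The rest of those past 1.5-fold were Rpl12 (27827 in SDR lactation, 17100 in involution), Rps24 (36536 and 22742), Rps3a (35917 and 23020) and the dim Rps13.

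Against this, 3 bright members had a signal in involution at or above that of SDR lactation. Rpl13a, which also takes part in silencing inflammatory mRNAs outside the ribosome, had 15589 in SDR lactation, 18412 and 17829 in heterozygous and homozygous HHR, and 18540 in involution. It was the lowest in SDR lactation, unlike most of the group. Rpl26 had 33458, 35481, 33465 and 35637 and so hardly moved. Rpl37a, a zinc finger protein of the large subunit, had 26236, 22212, 22113 and 26968.5, low in both HHR arrays and not in involution.

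The distance of a gene from the group median depended little on scaling, but the scalings themselves largely fix this. Median centring moves all genes of an array alike and cannot change the distance. Quantile and cyclic loess normalization move genes of similar brightness by similar amounts. The following values are thus no independent check of the differences between genes. In involution Rpl41 lay 0.64 below the median of the 38 on the log2 scale (0.61 to 0.68 below under the 4 scalings), Rpsa 0.48 below and Rps16 0.44 below. Rpl13a lay 0.65 above it (0.62 to 0.65), Rpl26 0.49 above and Rpl37a 0.44 above. Of the 38 genes 36 stayed on their side of the median under all 4 scalings, with Rps29 and Rpl14 as the exceptions.

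**Figure D3:**
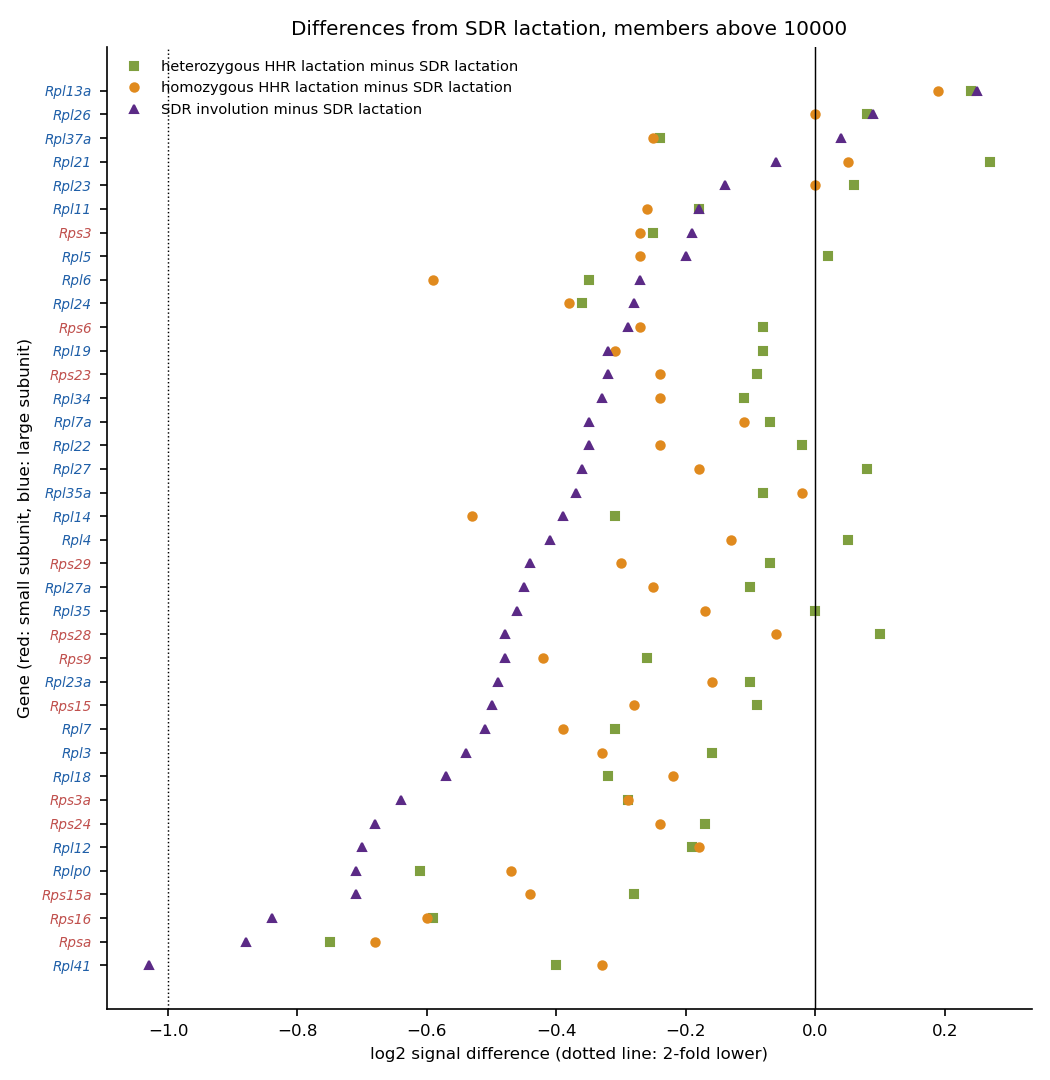
Difference from SDR lactation (log2) of each of the 38 bright ribosomal protein genes in heterozygous HHR (squares), homozygous HHR (circles) and SDR involution (triangles), sorted by involution. Points run from -1.03 for Rpl41 to 0.25 for Rpl13a in involution; the 3 comparisons share the SDR lactation array.

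Other members with known separate roles lay inside the group. Rpl5 and Rpl11, which with 5S RNA can bind Mdm2 and so stabilise p53, had log2 differences of -0.20 and -0.18 in involution. Rps3, at the mRNA entry channel, had -0.19, and Rps6, the target of S6 kinase, had -0.29 (29784 in SDR lactation, 24428 in involution). Rpl3, which lies near the catalytic centre, had -0.54, Rpl22 -0.35 and Rps29 -0.44 (49301 and 36395).

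By promoter, the 16 bright members with the pyrimidine motif within 5 bases of the start had a median of -0.43 in involution (range -0.71 to -0.14). The 16 bright members without it had -0.29 (range -1.03 to 0.25). All of the former were lower as deposited, as were all of the latter but Rpl13a and Rpl26. After cyclic loess normalization the former ran from -0.32 for Rplp0 to 0.31 for Rpl23. In heterozygous HHR the order of the medians as deposited was the other way, with -0.09 with the motif and -0.22 without it. In homozygous HHR the medians were -0.24 and -0.27. The ranges of the sets overlapped in all 3 comparisons.

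In homozygous HHR against SDR at lactation most of the group had lower signals. The 44 measured members divided into 39 lower and 5 higher, and the median was -0.25. Of all measured genes 5282 of 10866 were lower, and of the 171 other bright genes 114. At least 2-fold lower were 2 members, the dim Rpl39 and the dim Rps4y2, and 0 were higher. Of the 10866 measured genes 2.72% were at least 2-fold lower and 3.77% at least 2-fold higher (6.5% in either direction). At 1.5-fold 6 were lower and 0 higher, beside 9.99% and 12.2% of all genes. Among the bright members 34 of 38 were lower, including all 12 of the small subunit (median -0.29) and 22 of 26 of the large subunit (median -0.24). The median of the 38 was -0.25 as deposited and with median centring, -0.04 after quantile normalization and -0.17 after cyclic loess normalization.

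Rpsa, read by its brightest probe set, had the lowest difference among the bright members at -0.68, followed by Rps16 at -0.60. The other probe sets of Rpsa had -0.25 and -0.46, so its size here rests on the probe set used. Rpl6, a large subunit protein, had 25374 in SDR lactation, 19948.5 and 16892 in heterozygous and homozygous HHR, and 21078 in involution, a difference of -0.59 in homozygous HHR. Rpl14 had 16884, 13611, 11702.5 and 12893 in that order, 1.44-fold lower. For both genes homozygous HHR was the lowest of the 4 arrays. At the other end Rpl13a was 1.14-fold higher, and Rpl23, another ribosomal protein that can bind Mdm2, had 26770 in SDR and 26849.5 in homozygous HHR.

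In heterozygous HHR against SDR the differences went in both directions. The 44 measured members divided into 32 lower and 12 higher, and the median was -0.10. Of all measured genes 5333 of 10876 were lower, and of the 171 other bright genes 106. Only Rps4y2 was at least 2-fold lower and 0 were higher, beside 4.15% and 4.58% of the 10876 measured genes (8.73% in either direction). At 1.5-fold 5 were lower (Rpsa, Rplp0, Rps16, Rpl39 and Rps4y2) and 0 higher, beside 13% and 13.8% of all genes. Rpsa was 1.68-fold lower by its brightest probe set and 1.22-fold and 1.3-fold lower by the others. Rps16 had a difference of -0.59. Among the genes higher in heterozygous HHR, Rpl21 was 1.20-fold higher and Rpl13a 1.18-fold higher. Under quantile normalization 18 bright members were higher and 19 lower, and the median was -0.01.

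Between homozygous and heterozygous HHR, 0 members differed 2-fold in either direction, beside 3.76% of the 10877 measured genes higher and 3.14% lower (6.9% in all). The median of 44 measured members was -0.12, with 35 lower and 9 higher. Of all measured genes 5415 of 10877 were lower, and of the 171 other bright genes 93. For the 38 bright members the median was -0.11 as deposited and between -0.09 and -0.06 under the other scalings. Differences ran only from -0.29 for Rpl5 to 0.14 for Rplp0. Rpl5 had 30195 in heterozygous and 24753 in homozygous HHR, 1.22-fold lower.

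**Figure D4:**
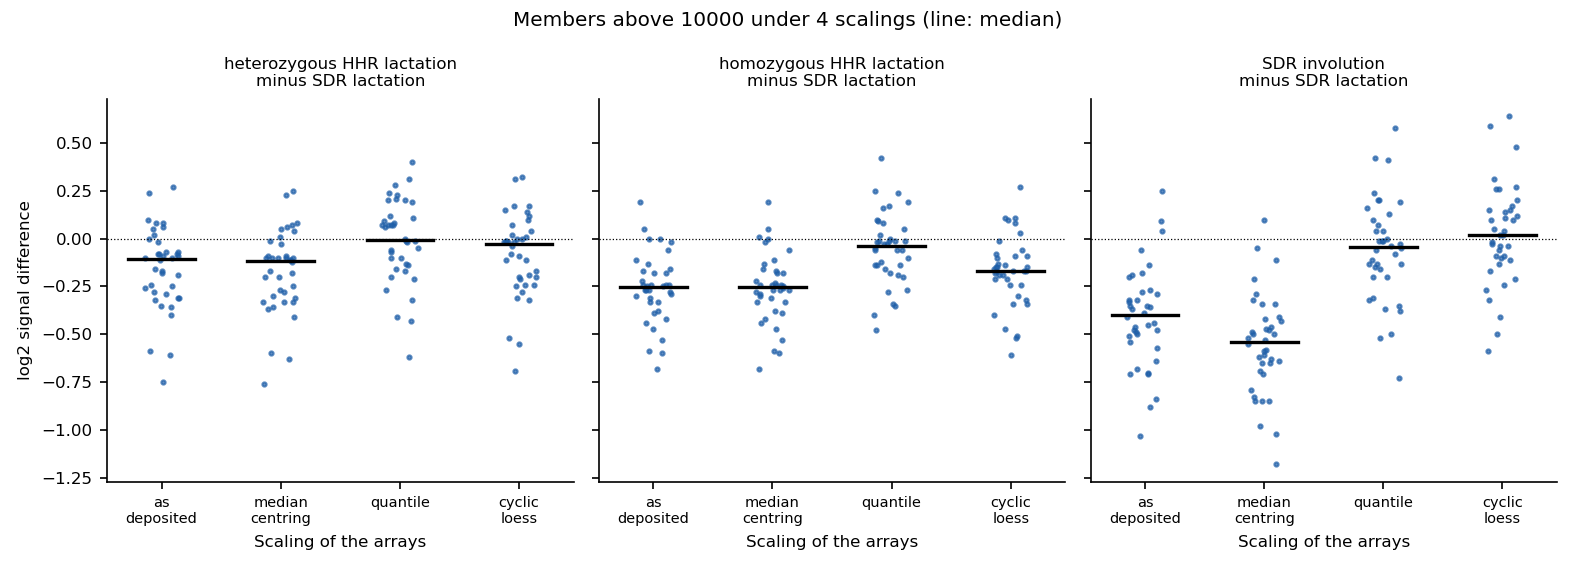
Difference from SDR lactation (log2) of the 38 bright ribosomal protein genes under 4 scalings of the arrays, with 1 point a gene and the median as a line. The involution median lies at -0.40 as deposited and at 0.02 after cyclic loess normalization, while the spread among genes stays similar.

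Among the 12 dimmer members, 5 were at or under the floor in all arrays: Rpl28, Rpl30, Rpl3l, Rpl39l1 and Rps4x-ps1. Rpl3l is the striated muscle paralog of Rpl3. No difference is given for these 5. Of the dimmer members Rpl28, Rpl30, Rps13 and Rpl39 encode standard proteins, each read by 1 probe set, with mean signals of 45.4, 62.7, 121.7 and 339.8. Whether these probe sets read the main transcript was not tested, so their low signals are not taken as low expression. Rps13 was near the floor, with 150 in SDR lactation, 151.7 and 94 in heterozygous and homozygous HHR, and 91 in involution. The pseudogene Rpl37-ps2 was above the floor in 1 array, involution, with 155.6.

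Rps4y2, a paralog of the small subunit protein Rps4x, had 523.1 in SDR lactation and 494 in SDR involution, against 199.2 in heterozygous and 183.9 in homozygous HHR. Both SDR arrays were thus high and both HHR arrays low, by 2.63-fold in heterozygous and 2.84-fold in homozygous HHR at lactation. Rpl39, a short protein of the exit tunnel, had 401.6, 247, 152.4 and 558 in SDR lactation, heterozygous HHR, homozygous HHR and involution. It was 2.64-fold lower in homozygous HHR than in SDR lactation. Rpl26l1, a paralog of Rpl26, was near the floor at lactation, with 141.1, 105.4 and 126, and had 293.3 in involution, 2.08-fold higher than in SDR lactation. This call was lost with the higher floor and with 3 of the other scalings.

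Rps27l, a p53-induced paralog of Rps27, had 674.6, 726.7, 887 and 617.3 in the same order and was highest in homozygous HHR. Rpl7l1, a nucleolar paralog of Rpl7, had 2025, 2552, 1848 and 1870, while its second probe set had 2542, 1844, 1637 and 1394. Against SDR lactation these probe sets opposed each other in heterozygous HHR, at 0.33 and -0.46, so its direction there is not settled. Further probe sets of Rpl3 and Rps24 also went the other way from the bright ones. That of Rpl3 had 217.5 in SDR lactation and 789.3 in heterozygous HHR, and that of Rps24 had 243.7 and 540.8.

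The 36 probe sets that list several symbols of these families were examined as a group after the values were seen, with no gene named. Their medians were -0.15 and -0.24 in heterozygous and homozygous HHR, and -0.48 in involution, all against SDR lactation. In involution 33 of 36 were lower and in homozygous HHR 33 of 36. The named members had -0.10, -0.25 and -0.36 in the same comparisons.

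Genes around the ribosome were read from gene lists. The list of ribosome biogenesis factors, which process ribosomal RNA and assemble subunits in the nucleolus, had 50 measured genes. In heterozygous HHR against SDR 3 of 50 were at least 2-fold higher and 0 lower, beside 4.58% and 4.15% of all genes, and the median was 0.25. The snoRNP protein Nop58 had 2856 in SDR lactation and 5906 in heterozygous HHR. Rrp12, an export factor, and Utp20, a processome component, were the others.

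In homozygous against heterozygous HHR 13 of 50 biogenesis factors were at least 2-fold lower and 0 higher, beside 3.14% of all genes lower, with a median of -0.64 (-0.65 to -0.63 under the 4 scalings). Nop58 had a log2 difference of -1.19, its partner Nop56 had -1.30, Ebna1bp2 had -1.06 and the 5S assembly factor Rrs1 had -1.06. Nucleolin (Ncl) had -0.65. Against SDR, homozygous HHR had 6 of 50 lower, beside 2.72% of all genes, and a median of -0.38, with the pseudouridine synthase Dkc1 at -1.27, Imp3 at -1.03 and Wdr12 at -1.09.

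In involution against SDR lactation 4 of the 50 biogenesis factors were higher and 3 lower, beside 10.3% and 8.94% of all genes. The median was 0.15 as deposited and 0.01 with median centring. Ncl had 4290 in SDR lactation and 10150 in involution. Nop56 had a difference of 1.46, and Imp3 of -1.58.

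Markers of dividing cells were highest in heterozygous HHR. Their summed signal was 8172 in SDR lactation, 33020 and 11990 in heterozygous and homozygous HHR, and 1144 in involution, with all 8 above the floor at lactation and Top2a and Birc5 at the floor in involution. Their part in these differences was not tested. Markers of the secretory epithelium, all 13 above the floor, summed to between 305709 and 327363 in the 4 arrays. T cell markers, of which 9 were on the array and between 4 and 8 above the floor, summed to 2846 in SDR lactation and to between 1460 and 1613 in the others, with Cd8a at the floor throughout. Endothelial markers summed to 9014 in SDR lactation and to between 5486 and 6073 in the others, with 7 of 7 above the floor. Adipocyte markers, 7 of 8 above the floor and Lep at it in every array, summed to 32475 in SDR lactation, 19920 and 22596 in heterozygous and homozygous HHR, and 9559 in involution. Red cell markers, of which 2 or 3 of 3 were above the floor, summed to 15140, 4921, 7349 and 3583 in the same order. B and plasma cell markers, with only 2 or 3 of 6 above the floor, summed to 24948, 16661, 17352 and 15699. Ms4a1, Cd79b and Pou2af1 were at the floor throughout and Mzb1 in SDR lactation, so these sums rest on few genes. The T cell, endothelial, adipocyte, red cell and B cell sums were highest in SDR lactation, and of these all but the endothelial sum were lowest in involution. Fibroblast markers, 8 of 8 above the floor, summed to 78898, 52847, 76104 and 62409. Macrophage and neutrophil markers, with 8 to 10 of 11 above the floor, had 22670, 14004, 29582 and 40615 and were highest in involution. Myoepithelial markers, with 8 or 9 of 9 above the floor, had 22319, 37716, 37202 and 27670 and were lowest in SDR lactation. In whole tissue, fewer cells of a type cannot be told apart from less RNA per cell, and the part of these cells in the ribosomal protein signals was not tested.

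Mitochondrial ribosomal proteins are encoded by a separate set of nuclear genes and serve translation inside mitochondria. Of 73 measured, the median was 0.11 and -0.22 in heterozygous and homozygous HHR, and 0.03 in involution against SDR lactation. The sign in involution turned with median centring, to -0.12. Between homozygous and heterozygous HHR it was -0.31. There 2 of 73 were lower at 2-fold, Mrps26 (-1.45) and Mrpl49 (-1.12), beside 3.14% of all genes. The cytosolic group had -0.12 there.

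**Figure D5:**
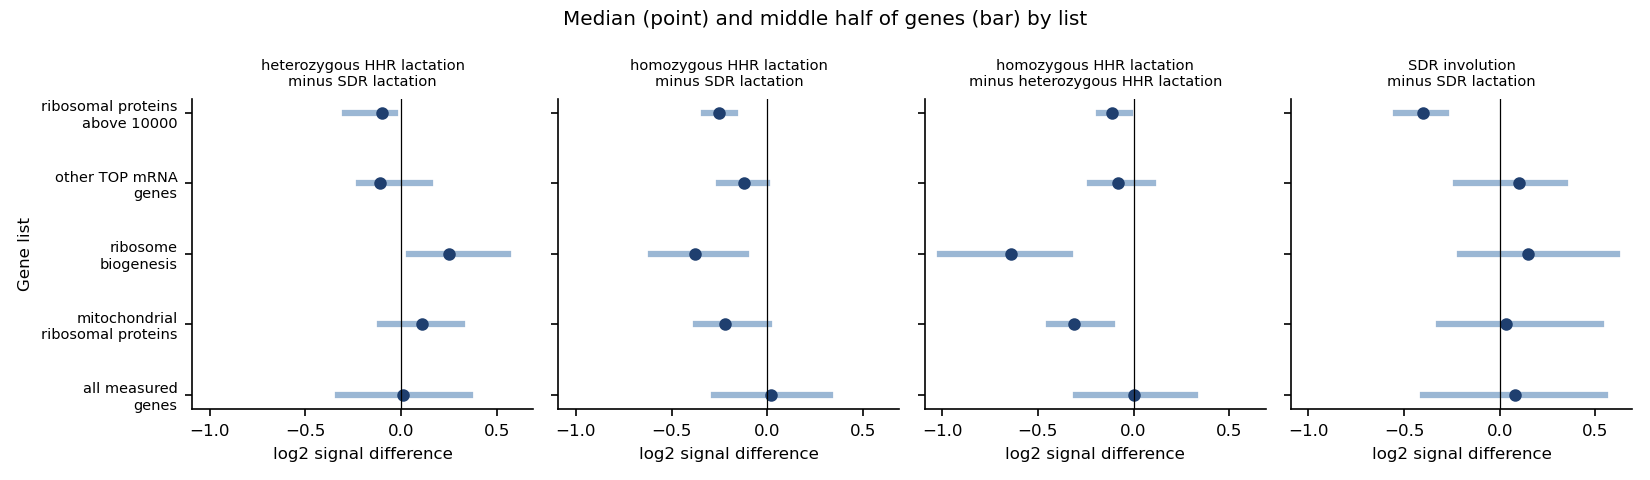
Median log2 difference (point) and the interquartile range (bar) for 5 gene lists in the 4 comparisons, 1 array a group. Only the ribosomal protein list was limited to mean signal above 10000. In homozygous against heterozygous HHR the biogenesis list lies at -0.64 and the bright ribosomal proteins at -0.11; all measured genes have the widest bars in involution.

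The 15 measured genes of the list of other TOP mRNAs had medians of -0.11 in heterozygous HHR and -0.12 in homozygous HHR. In involution their median was 0.10 as deposited and 0.22 after quantile normalization, but -0.05 with median centring. This list mixes bright and dimmer genes. As deposited, those with mean signal above 10000 were all lower in involution but Naca (0.15). The dimmer ones were all higher but Eif4a2 (-0.18). The median is thus not at like brightness with that of the bright ribosomal protein genes. Eef1a1, the elongation factor that delivers tRNA, had 35245 in SDR lactation and 29732.5 in involution. Eef2, the translocase, had 17217 and 14585. Rack1, a signalling scaffold on the small subunit, had 17849 and 12024, the lowest difference of the list at -0.57. Hnrnpa1 had 1166 in SDR lactation and 2639 in heterozygous HHR, the only one of the 15 past 2-fold, beside 4.58% of all genes higher there.

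Of the 17 measured genes of the mTOR and Larp1 list, 0 passed 2-fold in any comparison between lactation arrays. In involution 2 were lower, the kinase Akt1 (-1.09) and Rraga (-1.19), a GTPase that relays amino acid supply to mTOR, and 1 was higher, Sesn2 (1.63), an inhibitor of that relay, beside 8.94% and 10.3% of all genes. After quantile or cyclic loess normalization 1 was lower. Larp1 had 4189 in SDR lactation and 4765 in involution, and the mTOR activator Rheb had 9264 and 6944. In the p53 list 2 of 9 were at least 2-fold higher in involution, beside 10.3% of all genes, and 3 after quantile normalization. Gadd45a had 821.5 in SDR lactation and 4370 in involution, and Tp53inp1 was the other as deposited. Mdm2, the p53 ligase bound by free Rpl5 and Rpl11, had 1026 and 985 (-0.06).

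Among 8 genes of the Myc family, Myc, a transcription factor that drives ribosome production, had 370.8 in SDR lactation, 842.2 and 2536 in heterozygous and homozygous HHR, and 207.4 in involution. Its antagonist Mxd4 had 1179, 409.1, 787.5 and 860.2, and Mxi1 had 1350, 612.4, 999.6 and 1290. Mnt of the same list went the other way, with 468.1, 663.6, 815.1 and 1072. In heterozygous HHR against SDR 1 of the 8 was at least 2-fold higher and 2 lower, beside 4.58% and 4.15% of all genes. Myc was thus highest in homozygous HHR, the array in which 0 of the 38 bright ribosomal protein genes were highest as deposited and 3 after quantile normalization. The part of Myc in the ribosomal protein signals was not tested.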

How the data were processed

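Mammary gland RNA of rats was measured on Affymetrix arrays, 1 a group. The authors deposited 1 linear intensity for each probe set and array. It is a MAS5 signal, per the submitters' processing notes, which name no version. The scaling by the authors was read from the values: leaving out the lowest and highest 2%, the mean was 500.2 in every array. No detection call or saturation flag was used, and the settings of MAS5 are not stated in the labels. Columns left unmapped numbered 0.

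Controls (57 of 31099 probe sets) were set aside. The platform annotation pairs 20826 probe sets with 1 symbol, 436 with several and 9780 with none, and only the first were named. RefSeq identifiers of assembly GRCr8 held 48 of the 50 members, and start sequences are from RefSeq, build GRCr8. Signals under 91.5 were raised to it before log2. A gene counted as measured in a comparison if above that floor in 1 or both arrays. Calls are at least 2-fold, with no test.

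The members, the 10 gene lists and the cell type markers were chosen with earlier results of these data known. Named members were those past 2-fold, the 5 largest differences in each direction, those at the floor and a fixed set, of which a selection is given. From the lists, up to 4 genes past 2-fold and 2 short of it by brightness were eligible, again with a selection given. Alternatives were median centring, quantile and cyclic loess normalization (limma 3.58.1, R 4.3.3), other floors, a pseudocount, other choices of probe set or members, and a 1.5-fold threshold. The steps were tested on simulated data (Python 3.11.15, numpy 2.4.6, pandas 2.3.3).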

Additional observations from a re-analysis of the deposited data

How the results depend on the processing

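The median of the members in involution against SDR lactation was -0.36. It turned to 0.02 with cyclic loess normalization and moved to -0.50 with median centring and -0.05 with quantile normalization. That of homozygous HHR against SDR moved from -0.25 to -0.06 with quantile normalization. The medians otherwise stayed within 0.1. In involution the count of 1 higher member became 0 with each of the 3 scalings, the floor at the 55th percentile, the pseudocount and standard proteins only. It became 2 at 1.5-fold or with probe sets of several symbols, an alternative added after seeing the data. The count of 1 lower became 2 with median centring, 0 with quantile or cyclic loess normalization, and 9 at 1.5-fold. In homozygous HHR against SDR, 2 lower became 1 with standard proteins only and 6 at 1.5-fold. In heterozygous HHR, 1 lower became 0 with standard proteins only and 5 at 1.5-fold. There 0 higher became 1 with the floor at the 25th percentile, without shared-probe suffixes and with probe sets of several symbols. Between homozygous and heterozygous HHR, 0 lower became 1 with the floor at the 25th percentile and 2 at 1.5-fold. No paired analysis was possible because each group has 1 array. With 4 arrays in all, no value has an error, and for the 5 members at the floor in every array signal over background allows no difference.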
